A study of Homo sapiens with 3 samples.

Results

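The genes examined here carry, take up, store and export iron or its heme. The list has 10 members, taken by gene symbol from the 25270 symbols of the deposited files, and all 10 were found. By role they are the plasma proteins TF, HP, HPX and CP, the receptors TFRC and TFR2, the ferritin subunits FTH1 and FTL, and the exporter SLC40A1 with its hormone HAMP. The members were grouped by their function, and they were chosen with earlier results of these data known.

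The libraries come from HepG2, a human hepatocellular carcinoma cell line that is widely used as a model of the hepatocyte. HepG2/wild is the untreated parental line, and HepG2/metR is the population that outlived over 5 months of metformin and produces much lactate. HepG2/metR+oxamate cells are the same selected cells after 24 h in 40 mM oxamate, an inhibitor of lactate dehydrogenase. The study gives a common serum-containing medium for its cell lines and does not say whether metformin was present when RNA was taken. Total RNA of each culture was sequenced once, so there was 1 library per condition, no difference has a replicate check, and no p-value is given.

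Iron travels in plasma bound to transferrin, the product of TF, and enters cells when transferrin binds its receptor TFRC. Inside the cell, iron that is not used is kept in a shell of ferritin heavy and light chains, encoded by FTH1 and FTL, and it leaves through ferroportin, encoded by SLC40A1. The hepatocyte stores iron, secretes most of the plasma proteins that carry it, and makes hepcidin, the product of HAMP, which removes ferroportin from cell surfaces. When cells are short of iron, the iron regulatory proteins bind a hairpin in the mRNA called the iron-responsive element, which blocks translation of the ferritin and ferroportin mRNAs and stabilizes the TFRC mRNA.

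The elements are shown because the iron regulatory proteins are known to bind them in the mRNAs of FTH1, FTL, SLC40A1 and TFRC. A match was defined as a C, 5 bases, the loop CAGTGN and 5 bases that can pair with the first 5, allowing G with T, on the sense strand of the GENCODE principal transcript (GRCh38, whereas the deposited values were made on hg19). It was found in 5 of the 10 members and in 241 of 20298 principal transcripts (1.19%). FTH1 holds it in the 5′ UTR (chromosome 11, 61967573 to 61967602, minus strand), FTL in the 5′ UTR (chromosome 19, 48965335 to 48965364, plus strand) and SLC40A1 in the 5′ UTR (chromosome 2, 189580660 to 189580689, minus strand). TFRC holds 4 copies in the 3′ UTR (chromosome 3, 196050462 to 196051007, minus strand), of which the first is printed. The loop is in capitals.
FTH1: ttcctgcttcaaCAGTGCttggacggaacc
FTL: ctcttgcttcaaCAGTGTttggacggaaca
SLC40A1: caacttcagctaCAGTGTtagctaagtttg
TFRC: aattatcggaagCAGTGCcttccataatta
The fifth member with a match is TF, in the 3′ UTR of a transcript model of 20602 bases, and it is not printed because that model is far longer than the others. A match is a description of the letters and does not show that a protein binds there.

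The deposited values have the form log2(FPKM + 1), where FPKM is fragments per kilobase of transcript, scaled to library size, so that levels of different genes are per length. Levels below are the back-transformed FPKM, and changes are differences of the deposited log2 values, which understate the change of low genes. The FPKM summed to 562382, 534646 and 473773 in HepG2/wild, HepG2/metR and HepG2/metR+oxamate, and from the smallest values the libraries of HepG2/metR and HepG2/metR+oxamate were 1.21 and 1.24 times as deep as that of HepG2/wild. A gene is called higher or lower at 2-fold between HepG2/metR and HepG2/wild and at 1.5-fold with oxamate, the thresholds of the study, over the 12210 genes with a mean of at least 1 FPKM, which include all 10 members. In bulk RNA, fewer cells that express a gene and less RNA per cell cannot be told apart.

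Hepatocyte markers were abundant in HepG2/wild and, apart from SERPINA1, nearly absent in both HepG2/metR libraries. Of 10 hepatocyte markers, the summed level was 35575 FPKM in HepG2/wild, 12.9 in HepG2/metR and 9.30 in HepG2/metR+oxamate, and 10 of 10 were lower by 2-fold or more in HepG2/metR. ALB, which encodes serum albumin, was at 9206, 0.747 and 0.617 FPKM, and 3 of the 10 markers were listed at 0 in HepG2/metR. SERPINA1, named after its values were seen, was at 1708.5, 11.2 and 7.10 FPKM, most of what remained. With oxamate its log2 change was -0.59, just past 1.5-fold, and no marker was called lower with upper-quartile scaling or equal totals. In addition GSTM1, a glutathione transferase gene that is absent from many genomes, was at 0.0423, 33.8 and 24.5 FPKM, while MTAP, a gene of methionine salvage that tumors often delete, was at 15.3, 0.00714 and 0.00697 FPKM. CDKN2A, read beside them, was at 5.76 FPKM in HepG2/wild and listed at 0 in HepG2/metR and HepG2/metR+oxamate. GSTM1, MTAP and CDKN2A were named after their values were seen. Whether the HepG2/metR culture descends from the HepG2/wild culture was not tested, and every value of HepG2/metR against HepG2/wild below carries that limit.

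In HepG2/metR, all 10 iron genes stood at least 2-fold below HepG2/wild, and none was higher. Among all genes kept, 17.6% were at least 2-fold lower and 16.6% at least 2-fold higher. All members stood at 10 FPKM or more in HepG2/wild, and of the 6402 genes at that level, a comparison chosen after the values were seen, 23.0% were at least 2-fold lower. The median log2 change of the members was -4.53, against 0.02 for all genes. The members took 2.48% of all FPKM in HepG2/wild, 0.572% in HepG2/metR and 0.594% in HepG2/metR+oxamate. Most of this was FTL, which alone took 1.91%, 0.498% and 0.524%. The genes fell into a group of 7 that were under 1 FPKM in both HepG2/metR libraries (TF, HP, HPX, CP, TFR2, SLC40A1 and HAMP) and a group of 3 that kept 47.9 FPKM or more (FTL, FTH1 and TFRC). Of the genes at 10 FPKM or more in HepG2/wild, 5.87% were under 1 FPKM in both HepG2/metR libraries.

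**Figure D1:**
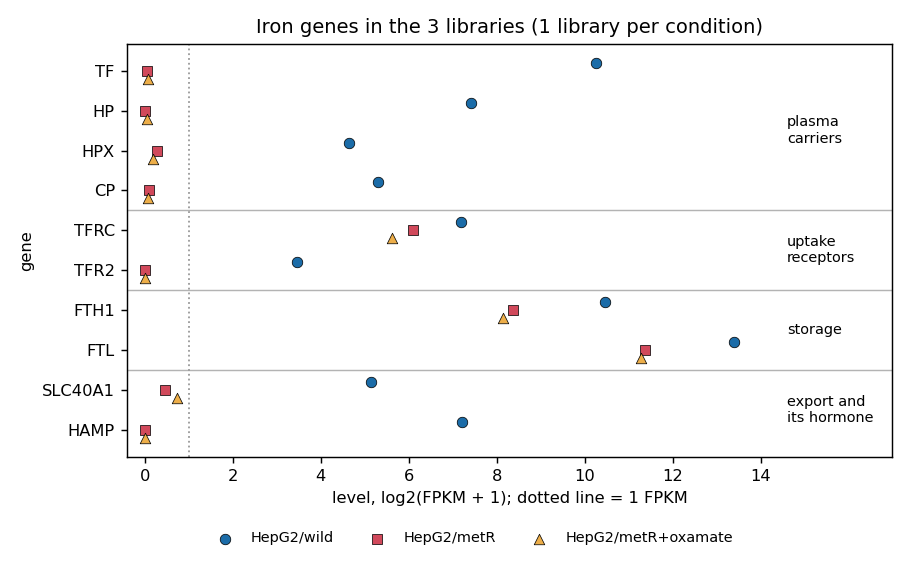
Level of each iron gene as log2(FPKM + 1) on the horizontal axis, grouped by role, with 1 point for each of the 3 libraries and a dotted line at 1 FPKM. Circles (HepG2/wild) lie to the right of the other symbols for all 10 genes, and for 7 genes both HepG2/metR libraries lie left of the line, whereas TFRC, FTH1 and FTL stay well to the right of it.

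The plasma carriers were at 24.1 to 1229 FPKM in HepG2/wild and nearly absent in both HepG2/metR libraries. TF, which encodes transferrin, was listed at 1229 FPKM in HepG2/wild, 0.0392 in HepG2/metR and 0.0511 in HepG2/metR+oxamate. It was the 66th most abundant gene of HepG2/wild, and its change of -10.21 on the log2 scale was the 11th lowest among the genes kept. Both HepG2/metR values were near 0, so their closeness says little. No number of fragments was estimated for TF, because its transcript model of 20602 bases was left out of that estimate.

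HP encodes haptoglobin, which binds free hemoglobin. It was listed at 170 FPKM in HepG2/wild, at 0 in HepG2/metR and at 0.0321 in HepG2/metR+oxamate, the last of which is worth about 1 fragment. HPR, a near-identical neighbor that can share reads with HP, was at 29.3 FPKM in HepG2/wild and listed at 0 in the other libraries, so the level of HP in HepG2/wild is uncertain by the reads that the counting may have moved between them.

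HPX encodes hemopexin, which binds free heme for uptake by the liver. It was at 24.1, 0.216 and 0.141 FPKM in HepG2/wild, HepG2/metR and HepG2/metR+oxamate, and the low values correspond to an estimated 9 and 7 fragments. CP encodes ceruloplasmin, a copper protein that oxidizes iron as it leaves the cell. Its levels were 38.4, 0.0680 and 0.0443 FPKM, with an estimated 8 and 6 fragments behind the low values. In both genes the parental library was the high one, and the log2 changes between HepG2/wild and HepG2/metR were -4.36 for HPX and -5.20 for CP.

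The receptors did not move alike. TFRC, the receptor found on nearly all dividing cells, was at 144 FPKM in HepG2/wild, 67.3 in HepG2/metR and 47.9 in HepG2/metR+oxamate. The levels descended in that order, and TFRC was 2.15-fold lower in HepG2/metR, the smallest change of the 10 members. Its log2 change of -1.09 passed the 2-fold threshold narrowly, and with upper-quartile scaling it was -0.94 and no longer passed. TFR2, the second transferrin receptor, is known mainly from hepatocytes, where it takes part in sensing iron and in the control of hepcidin. It had the lowest level of the members in HepG2/wild, at 10.02 FPKM, and was listed at 0 in both HepG2/metR libraries.

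The ferritin genes stayed the most abundant members and were lower by nearly the same factor. FTL was at 10759, 2664 and 2483 FPKM in HepG2/wild, HepG2/metR and HepG2/metR+oxamate, and FTH1 at 1400, 328 and 282 FPKM. FTL was 4.04-fold and FTH1 4.27-fold lower in HepG2/metR than in HepG2/wild. The FTL level was 7.69, 8.12 and 8.79 times the FTH1 level in the 3 libraries. FTL was the second most abundant gene of HepG2/wild, and its rank was 21 in HepG2/metR and 15 in HepG2/metR+oxamate. Both genes have many processed copies in the genome. The files list FTH1P3 at 0.223 FPKM or less in the 3 libraries and FTH1P18 and FTLP10 at 0, so few reads were assigned to those copies, and how the counting treated reads shared with other copies is not given in the sources used here.

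From HepG2/wild to HepG2/metR the ferritin genes were lower by more than TFRC, and with oxamate TFRC was lower by more than the ferritin genes. The ratio of FTH1 to TFRC therefore also differed between libraries. FTH1 stood at 9.69 times the level of TFRC in HepG2/wild, 4.88 times in HepG2/metR and 5.90 times in HepG2/metR+oxamate. These are ratios of mRNA levels. The iron regulatory proteins change how much ferritin is translated from a given mRNA, so the ratios give no measure of the proteins.

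SLC40A1 and HAMP, the exporter and the hormone that removes it, were both under 1 FPKM in the HepG2/metR libraries. SLC40A1 was at 34.3, 0.364 and 0.660 FPKM in HepG2/wild, HepG2/metR and HepG2/metR+oxamate, which is 94.3-fold lower in HepG2/metR than in HepG2/wild. An estimated 33 and 64 fragments stand behind the values in HepG2/metR and HepG2/metR+oxamate. HAMP was at 146 FPKM in HepG2/wild and listed at 0 in both HepG2/metR libraries. Of the 4 members with a known iron-responsive element, SLC40A1 was therefore the one that did not stay above 1 FPKM.

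With oxamate, none of the 10 members was called in either direction, where 3.82% of all genes were at least 1.5-fold lower and 4.30% at least 1.5-fold higher. Of these members, 7 were under 1 FPKM in both libraries and passed the filter through HepG2/wild alone. With a pseudocount of 1, no fall from their HepG2/metR levels could reach 1.5-fold. For lower values the count therefore covers only TFRC, FTH1 and FTL. The difference nearest the threshold was that of TFRC, at -0.48 on the log2 scale, where 1.5-fold is 0.58. FTH1 differed by -0.22 and FTL by -0.10, and after scaling to equal totals the difference of FTL was 0.07, so its direction turned with the scaling. SLC40A1 differed by 0.28 on the scale with a pseudocount of 1, and its FPKM was 1.81 times higher with oxamate. With a pseudocount of 0.1 the difference was 0.71 and passed 1.5-fold, at a level that stayed under 1 FPKM. For HPX and CP the FPKM was 1.53 and 1.54 times higher in HepG2/metR than in HepG2/metR+oxamate, on fewer than 10 estimated fragments in each library, and the log2 differences were -0.09 and -0.03.

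HepG2/metR+oxamate against HepG2/wild shares a library with each of the comparisons above, and its values are given for completeness. All 10 members were at least 2-fold lower, where 17.6% of all genes were lower and 18.0% higher at that threshold. The log2 changes were -1.57 for TFRC, -2.11 for FTL and -2.31 for FTH1, and -3.46 to -10.19 for the other members.

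For each member, the gene outside the list with the most similar levels was found by the Euclidean distance over the 3 log2 values. It was APOB for TF (distance 0.285), SERPINA7 for HP (0.0167), AKAP12 for HPX (0.0923), NES for CP (0.0527), GPHA2 for TFR2 (0.00519), PLEKHB1 for SLC40A1 (0.115) and BPIFB2 for HAMP (0.0348). Of these neighbors, APOB and SERPINA7 were picked out because they encode plasma proteins made by the liver, like TF and HP. The members matched so far were under 1 FPKM in both HepG2/metR libraries. Each of these matches therefore rests mostly on the level in HepG2/wild. For the members that remained expressed the nearest genes were ATRAID for TFRC (0.0990), HSPE1 for FTH1 (0.562) and RPL37A for FTL (1.61). RPL37A was at 5700, 5189 and 4643 FPKM, so even the nearest gene did not share the lower values of FTL. With 3 libraries many genes have like values.

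The other genes of iron metabolism were read from 6 lists, of which 45 genes were kept. Of these, 11 were lower by 2-fold or more in HepG2/metR than in HepG2/wild, 4 were higher and 30 were neither. That is 24.4% lower and 8.89% higher, where all genes gave 17.6% and 16.6%, and 23.0% of the genes at 10 FPKM or more in HepG2/wild were lower, so the share of lower genes was near the background. The counts of the 6 lists, of 3 to 15 genes each, and of the lists after them are to be read against the same shares. With oxamate 0 of the 45 were called in either direction on the deposited scale. With equal totals 6 were higher, without a pseudocount 2, and with a pseudocount of 0.1 or upper-quartile scaling 1, while 0 were lower under any of these. Their median log2 change in HepG2/metR was -0.30.

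In the list of uptake and reduction, 2 of 7 genes were lower and 2 were higher. SLC39A14, a zinc transporter that also brings iron not bound to transferrin into hepatocytes, was at 208, 40.9 and 34.2 FPKM in HepG2/wild, HepG2/metR and HepG2/metR+oxamate. STEAP1 was the other lower gene, at 23.4, 5.00 and 5.25 FPKM. CYBRD1, a ferric reductase best known from the gut, went the other way, at 0.314, 16.1 and 23.7 FPKM, and so did SLC39A8, a metal transporter related to SLC39A14, at 0.345, 4.82 and 6.04 FPKM. STEAP3, which reduces iron in the endosome after uptake by TFRC, was at 19.1, 16.7 and 18.9 FPKM and was not called. STEAP1 and SLC39A8 were named after their values were seen.

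The regulators of iron-responsive mRNAs were not called. ACO1, which encodes iron regulatory protein 1, was at 17.7, 16.5 and 16.7 FPKM in HepG2/wild, HepG2/metR and HepG2/metR+oxamate, and IREB2, which encodes iron regulatory protein 2, at 18.3, 11.9 and 13.8 FPKM. In the list of ferritin handling, 1 of 3 genes was lower. NCOA4, the receptor that delivers ferritin to autophagy, was at 152, 36.9 and 46.2 FPKM, a log2 change of -2.02 beside -2.01 for FTL and -2.09 for FTH1. PCBP1 and PCBP2, chaperones that load iron into ferritin, differed by -0.85 and 0.35.

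In the list of hepcidin control, 15 of 20 genes were kept, of which 4 were lower in HepG2/metR and 0 were higher. Without the filter on low values, 5 of the 20 were lower and 1 was higher. ID1, a target gene of BMP signaling, was at 259, 15.4 and 10.6 FPKM in HepG2/wild, HepG2/metR and HepG2/metR+oxamate. IL6R, the receptor of interleukin 6, which induces hepcidin, was at 12.5, 1.74 and 1.99 FPKM. The other lower genes were SMAD6, at 3.52, 0.218 and 0.185 FPKM, and FURIN, the protease that trims the hepcidin precursor, at 54.2, 13.1 and 18.1 FPKM. STAT3, which carries the interleukin 6 signal to the HAMP promoter, was at 32.8, 28.1 and 32.8 FPKM and was not called. TMPRSS6, a liver protease that restrains hepcidin, did not pass the filter and was at 1.31 FPKM in HepG2/wild and listed at 0 in both other libraries. FAM132B, which encodes erythroferrone, a hormone that lowers hepcidin, did not pass it either and was at 0.0152, 1.49 and 1.12 FPKM, higher in HepG2/metR by 1.30 on the log2 scale. SMAD6, FURIN, TMPRSS6 and FAM132B were named after their values were seen.

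Heme handling had 3 of 11 genes lower and 1 higher. FLVCR2 was at 5.42, 0.474 and 0.459 FPKM in HepG2/wild, HepG2/metR and HepG2/metR+oxamate. LRP1, the receptor that takes up the complex of heme and hemopexin, was at 28.0, 8.74 and 13.1 FPKM, and HMOX1, the inducible heme oxygenase that releases iron from heme, at 41.0, 15.8 and 11.2 FPKM. BLVRB, a biliverdin reductase, was the higher gene, at 24.6, 60.0 and 56.0 FPKM. HMOX1 was named after its values were seen.

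In the list of mitochondrial iron, 1 of 6 genes was lower in HepG2/metR and 1 was higher. The higher gene was SLC25A37, which imports iron into mitochondria, at 6.04, 16.7 and 16.6 FPKM in HepG2/wild, HepG2/metR and HepG2/metR+oxamate. ISCU and NFS1, of iron-sulfur cluster assembly, differed by -0.36 and -0.69 on the log2 scale and were not called. Of 6 relatives of the members, 2 were kept. These were HPR, which was lower as given above, and MFI2, the membrane-bound melanotransferrin, at 2.59, 2.40 and 2.74 FPKM, which was not called.

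Lists of liver genes moved with the 7 members that were nearly absent, and their part in the result was not tested. Of 10 transcription factors of the liver, 9 were lower by 2-fold or more in HepG2/metR, and 8 with upper-quartile scaling or equal totals. HNF4A was at 68.7, 0.0156 and 0.0153 FPKM in HepG2/wild, HepG2/metR and HepG2/metR+oxamate, and CEBPA at 74.3, 0.558 and 0.723 FPKM. Of 9 acute-phase genes kept, to which HP, HAMP, HPX and CP are related as genes that inflammation induces in the liver, 7 were lower and 2 were higher. FGG, a fibrinogen chain, was at 802 FPKM in HepG2/wild, listed at 0 in HepG2/metR and at 0.0917 FPKM in HepG2/metR+oxamate. The higher genes, named after their values were seen, were SAA1, listed at 0 in HepG2/wild and at 121 and 107 FPKM in the other libraries, and SAA2, listed at 0 and at 5.68 and 5.95 FPKM. Of 8 mesenchymal markers kept, 3 were higher and 2 lower, and VIM, the intermediate filament vimentin, was at 1.23, 1576 and 1140 FPKM. FN1, which encodes fibronectin, went the other way, at 1503, 45.7 and 93.7 FPKM, a log2 change of -5.01 in HepG2/metR and of 1.02 with oxamate. TAGLN, named after its values were seen, was the other lower marker, at 52.2, 9.27 and 12.2 FPKM.

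Promoter sequence is shown for TF and HAMP, a pair of nearly silent members, since factors of the liver and of inflammation are known to act near their starts. RefSeq promoters (GRCh38.p14) were found for 6 members, TF, HPX, TFRC, FTL, SLC40A1 and HAMP, and not for HP, CP, TFR2 and FTH1. The table has a pair of starts for TF, and the one nearer to the GENCODE principal transcript was used. The last 120 bases before the start are at chr3:133746273-133746392 on the plus strand for TF and chr19:35282408-35282527 on the plus strand for HAMP, with all motif matches in capitals.
TF: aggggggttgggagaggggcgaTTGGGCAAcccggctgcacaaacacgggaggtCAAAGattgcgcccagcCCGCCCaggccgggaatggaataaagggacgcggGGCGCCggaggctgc
HAMP: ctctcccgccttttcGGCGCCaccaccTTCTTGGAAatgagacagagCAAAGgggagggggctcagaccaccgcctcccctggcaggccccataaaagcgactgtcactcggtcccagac

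Motifs were searched on both strands of the 250 bases before the start, for the 6 members and for 34943 promoters in all. The STAT3 motif TTCNNNGAA was found in HAMP alone among the 6, and in 6.56% of all promoters. The BMP response element GGCGCC was found in TF, TFRC and HAMP, and in 16.4% of all promoters. The HNF4 core CAAAG was found in TF, FTL and HAMP, and in 42.1% of all promoters. The C/EBP motif TTNNGNAA was found in TF, HPX and FTL, and in 33.2%. The GC box GGGCGG was found in TF, TFRC, FTL and SLC40A1, and in 42.5%. The TATA box TATAAA was found in TFRC alone, against 10.8% of all promoters, and the hypoxia response element ACGTG in TFRC and FTL, against 18.5%. The HNF1 half-site GTTAAT (6.24% of all promoters) and the antioxidant response element TGANNNNGC (35.1%) had no match in the 6 members. FTL, which stayed expressed, held the HNF4 and C/EBP motifs, and TFRC, which also did, held the BMP motif. What any of these matches does in the cells was not tested.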

How the data were processed

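Total RNA of 3 HepG2 cultures was sequenced on an Illumina instrument. The authors deposited 1 table per library with a log2 value for each gene symbol, in the form log2(FPKM + 1), as inferred from the values. The submitters' processing notes name STAR 2.5.1b, Cufflinks 2.2.1, FastQC 0.11.5 and hg19. The annotation and filters are not given in the sources used here, and 28 symbols that had been turned into dates were not used by name.

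No scaling was added to the deposited values. Genes with a mean of at least 1 FPKM were kept. Relative depth was taken as the commonest ratio between libraries among values below 0.15 FPKM. Numbers of fragments are estimates, from the product of FPKM and transcript length (GENCODE 29) that 1 fragment gives in genes with a single transcript. The depth in reads is not given, so no interval is printed. With 1 library per group no test was run. The calling steps were tested on simulated data, which checks their arithmetic and not the spread between cultures.

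The members and lists were chosen with earlier results of these data known. Named are all members, the nearest gene of each, and in each other list genes among the 2 with the highest mean and the 2 with the largest change in HepG2/metR, unless stated. 1 gene of the list of mitochondrial iron is not reported here by name. Alternatives were pseudocounts of 0.1 and 0, no filter or a mean of at least 5 FPKM, median-of-ratios and upper-quartile scaling, and equal totals. Python 3.11, numpy 2.4.6, pandas 2.3.3 and matplotlib 3.10.9 were used.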

Additional observations from a re-analysis of the deposited data

How the results depend on the processing

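Of the iron genes, 10 were lower by 2-fold or more in HepG2/metR under the pseudocount of 0.1, without a filter, with median-of-ratios size factors and with equal totals. The count was 9 with upper-quartile scaling, where TFRC differed by -0.94, 9 of 9 with a mean of at least 5 FPKM, which removes TFR2, and 7 of 7 without a pseudocount, where genes at 0 are left out. The median log2 change was between -4.41 and -6.56. With oxamate, SLC40A1 passed 1.5-fold with a pseudocount of 0.1 (1 member higher, at 0.71) and without one (1 member higher, at 0.86), and without one 2 members were lower, HPX at -0.61 and CP at -0.62. These are genes under 1 FPKM, for which the pseudocount sets the size of a change. Equal totals moved the median of all genes with oxamate from 0.02 to 0.17, and upper-quartile scaling moved that of HepG2/metR from 0.02 to 0.15. No replicate could be left out, because each condition has 1 library. No paired analysis was possible because each condition has 1 library.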
